A study of Mus musculus with 4 samples.

Results

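Imprinted genes, which are transcribed mainly from the copy inherited from 1 parent, were compared between mouse embryonic stem cells (ESCs) grown in serum and in 2i. The members were 39 genes listed by symbol, of which 22 are known to be expressed from the paternal allele and 17 from the maternal allele. Of these, 30 matched a row among the 14533 genes of the deposited table, 15 for each allele, and 9 had no row. RNA was sequenced from ESCs in late G1-phase, the stretch of the cell cycle before DNA synthesis, with 2 libraries per condition. Serum ESCs were kept in medium with fetal calf serum and leukemia inhibitory factor (LIF), and 2i ESCs in serum-free medium with LIF, the MEK inhibitor PD0325901 and the GSK3 inhibitor CHIR99021. The labels name no cell line for these libraries, and the G1-phase cells were obtained by sorting. The stage follows the sample labels, since the description of the series names early G1-phase. The study calls the libraries biological replicates, but nothing in the sources used here ties a replicate number in serum to the same number in 2i.

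An imprinted gene is marked in the egg or the sperm by DNA methylation at a control region, and this mark is kept after fertilization while most other methylation is lost. The zinc finger protein ZFP57 and its partner TRIM28 hold the mark at many control regions, and the methyltransferases DNMT1, DNMT3A and DNMT3B write or copy it. Imprinted genes sit in clusters in which neighbours are often expressed from opposite alleles, and several act on growth, metabolism and the placenta. ESCs in 2i are known for low DNA methylation across the genome, and loss of imprints in culture has been described for ESCs in general. The libraries did not separate the alleles, so every value here is the sum over both copies. For bulk libraries such as these, fewer cells that express a gene and less RNA per cell cannot be told apart.

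The libraries held between 18939401 and 26570098 whole reads. Protein-coding genes took 46.9% of them in serum replicate 1 and 76.3% in serum replicate 2, against 57.8% and 66.3% in 2i. The 10 genes with the most reads took 50.6% and 17.5% in serum, against 34.7% and 25.5% in 2i, so the serum libraries were the most unlike in composition. Over the 13005 genes tested, replicates of serum differed by a median of 0.53 on the log2 scale and replicates of 2i by 0.76. The means of the groups differed by a median of 0.55. A mean of 2 libraries varies less than a single library, so these sizes are not directly comparable. Of 10 ESC markers 9 had a row, and their summed level was 58311 and 81677 normalized counts in serum, against 71669 and 92876 in 2i, with the pluripotency factors Pou5f1, Nanog and Sox2 detected throughout (Sox2, the lowest, from 3523 to 6726). Of 10 trophoblast markers 6 had a row, and their sum was 751 and 489 in serum, against 2901 and 4134 in 2i. In 2i this was mostly Elf5 in replicate 1 (2215) and Krt8 in replicate 2 (3614). Krt18 was higher in both 2i libraries, while Eomes, Elf5, Gata3, Krt8 and Krt7 overlapped, and Cdx2, Hand1, Tfap2c and Tpbpa had no row. Of 10 primitive endoderm markers 7 had a row, with a summed level of 3418 and 6162 in serum, against 4147 and 5709 in 2i, and Gata4, Gata6 and Sox17 were each higher in both 2i libraries, while Pdgfra, Sparc, Lama1 and Col4a1 overlapped. Of 10 fibroblast markers 5 had a row, with a sum of 7962 and 7060 in serum, against 16304 and 4662 in 2i that was mostly Fn1. The part of these cell type markers in the differences between serum and 2i was not tested.

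Start regions are shown for Zdbf2, Meg3 and Mest. Among the members tested, Zdbf2 had the highest fold change, Meg3 the widest gap between the 2i libraries, and Mest the largest shift against its neighbour of the opposite allele. Each is the 250 bases before a RefSeq start, read 5′ to 3′ on the strand of the gene in build GRCm38.p6. Capitals mark TGCCGC, the core of the site that ZFP57 binds when it is methylated, on either strand.
Zdbf2 distal start, chr1:63200108-63200357, plus strand: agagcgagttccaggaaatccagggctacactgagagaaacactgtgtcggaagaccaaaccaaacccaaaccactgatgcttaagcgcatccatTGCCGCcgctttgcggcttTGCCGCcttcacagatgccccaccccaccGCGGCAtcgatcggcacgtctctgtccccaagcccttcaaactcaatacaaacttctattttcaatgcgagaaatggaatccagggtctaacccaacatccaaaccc
Zdbf2 proximal start, chr1:63273019-63273268, plus strand: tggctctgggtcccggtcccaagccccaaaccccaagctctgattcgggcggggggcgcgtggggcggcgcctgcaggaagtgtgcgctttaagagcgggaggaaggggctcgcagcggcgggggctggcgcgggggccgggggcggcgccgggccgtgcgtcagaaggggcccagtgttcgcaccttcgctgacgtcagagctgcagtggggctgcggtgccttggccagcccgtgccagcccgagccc
Meg3 distal start, chr12:109540746-109540995, plus strand: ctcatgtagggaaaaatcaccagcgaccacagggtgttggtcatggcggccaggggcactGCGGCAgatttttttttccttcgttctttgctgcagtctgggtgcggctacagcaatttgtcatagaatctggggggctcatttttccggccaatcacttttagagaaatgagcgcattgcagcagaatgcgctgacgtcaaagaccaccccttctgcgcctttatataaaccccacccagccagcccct
Mest downstream start, chr6:30737800-30738049, plus strand: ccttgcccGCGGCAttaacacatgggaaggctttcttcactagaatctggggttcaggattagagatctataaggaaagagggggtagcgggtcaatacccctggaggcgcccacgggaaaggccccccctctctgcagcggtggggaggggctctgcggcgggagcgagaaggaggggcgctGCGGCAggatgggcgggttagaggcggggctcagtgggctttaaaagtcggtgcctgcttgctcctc
The distal Zdbf2 region held 3 copies, the printed Meg3 region 1 and the printed Mest region 2, while the proximal Zdbf2 region held 0. A further Meg3 start (chr12:109545148-109545397) and an upstream Mest start (chr6:30733256-30733505), not printed here, also held 0. The motif was present in 8.68% of all 32851 RefSeq promoters cut to the same length. Of the 30 members with a row, 25 had at least 1 such promoter, and 7 of these (28.0%) held the motif in at least 1 of them, namely Zdbf2, Mcts2, Mest, Copg2, Nap1l5, Plagl1 and Meg3. For all 27025 genes with a promoter this share was 9.84%. By promoter, 8 of the 37 of these members (21.6%) held the motif, against the 8.68% above. The 8 include the printed Mest region and a Mest region that overlaps it almost wholly (chr6:30737803-30738052), with the same 2 copies. The motif contains a CpG (C followed by G), of which all promoters held a median of 6 and the printed regions 13, 26, 10 and 14. Promoters of the members ran from 0 to 40. The shares were not adjusted for CpG content or for the number of promoters per gene. A match describes the letters of this window only, and binding or methylation was not measured in these libraries.

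No imprinted gene passed the test between serum and 2i. With limma, on log2(normalized count + 1) and with a call at an adjusted p (Benjamini-Hochberg over all genes tested) under 0.05 and a fold change above 2, 0 of the 27 members tested were called in either direction. Of all genes tested 0% were called higher in serum and 0.0154% higher in 2i, which were 2 annotated U1 small nuclear RNA genes, named after their values had been seen. At an unadjusted p under 0.05 and the same fold, 3 members (11.1%) were higher in serum, namely Zdbf2, Rian and Mirg, and 0 were higher in 2i, where 2.97% and 3% of all genes were. DESeq2 on whole reads called 0.561% of all genes higher in serum and 1.37% higher in 2i, and again 0 members. By edgeR 0 members were called as well, but its share of all genes was not counted. The edgeR adjusted p was 0.692 for Zdbf2 and also for Dppa3, a gene described below. For Zdbf2, DESeq2 gave 0.061, and limma with the replicate number as a block gave 0.052. Without a block, all adjusted p-values of the members by limma lay between 0.753 and 0.966. With the replicate number as a block, limma called 0.338% of all genes higher in serum and 1.22% higher in 2i, and 0 members. At an unadjusted p it called 4.9% of all genes higher in serum and 6.06% higher in 2i, with 5 members (18.5%) and 1 member (3.7%).

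**Figure D1:**
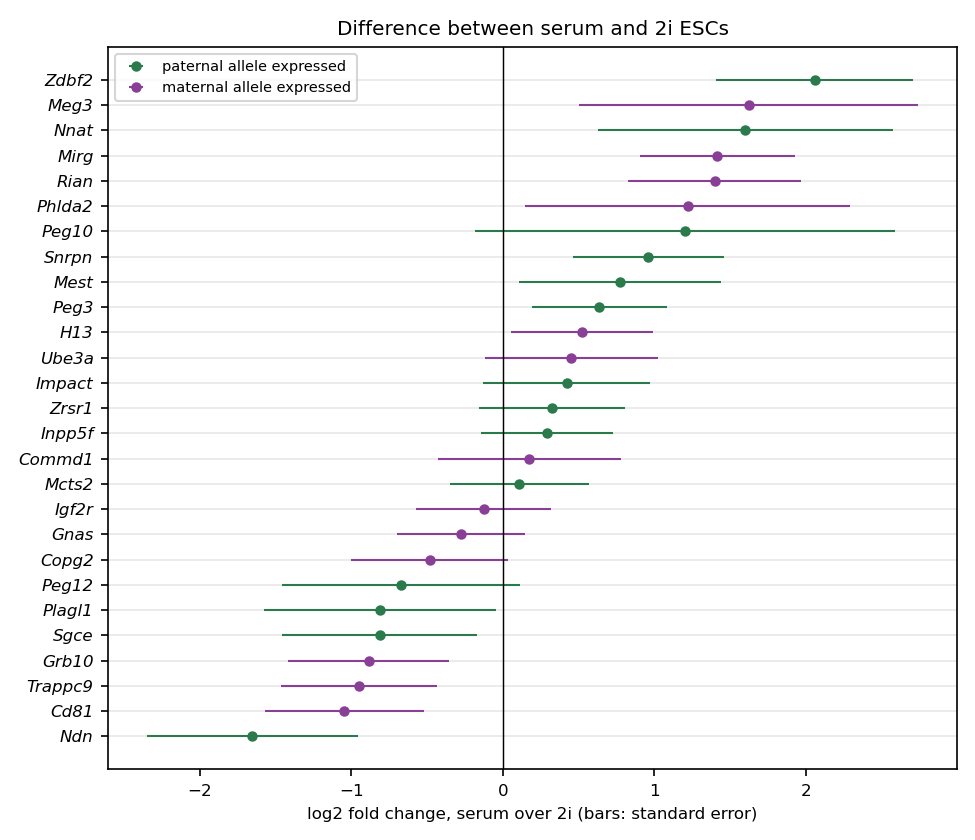
Log2 fold change of serum over 2i (x axis) for the 27 imprinted genes tested, ordered by value, with the limma standard error as bars and the allele known to be expressed as the colour. The points run from -1.65 for Ndn to 2.06 for Zdbf2, and 17 lie above 0 and 10 below.

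Counts of members whose libraries did not overlap were as follows. Both serum values lay above both 2i values for 11 members (40.7%), where 20.5% of all genes tested did, and both 2i values lay above both serum values for 6 members (22.2%), against 19.4%. The remaining 10 overlapped. Over the 27 members the median log2 fold change was 0.33, beside 0.0047 over all genes. For the 14 paternally expressed genes tested the median was 0.37, with 10 above 0 and 4 below, and for the 13 maternally expressed genes it was 0.18, with 7 above and 6 below. These classes follow the allele known to be expressed, and the allele used in these cells was not measured. When 1 library was left out, the paternal median ran from 0.12 (without serum replicate 2) to 0.59 (without serum replicate 1), and was 0.19 without 2i replicate 1. The maternal median turned to -0.03 without serum replicate 2, and to -0.02 with edgeR and -0.01 with DESeq2. Values of each allele class lay on both sides of 0, as the plot of fold changes shows.

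**Figure D2:**
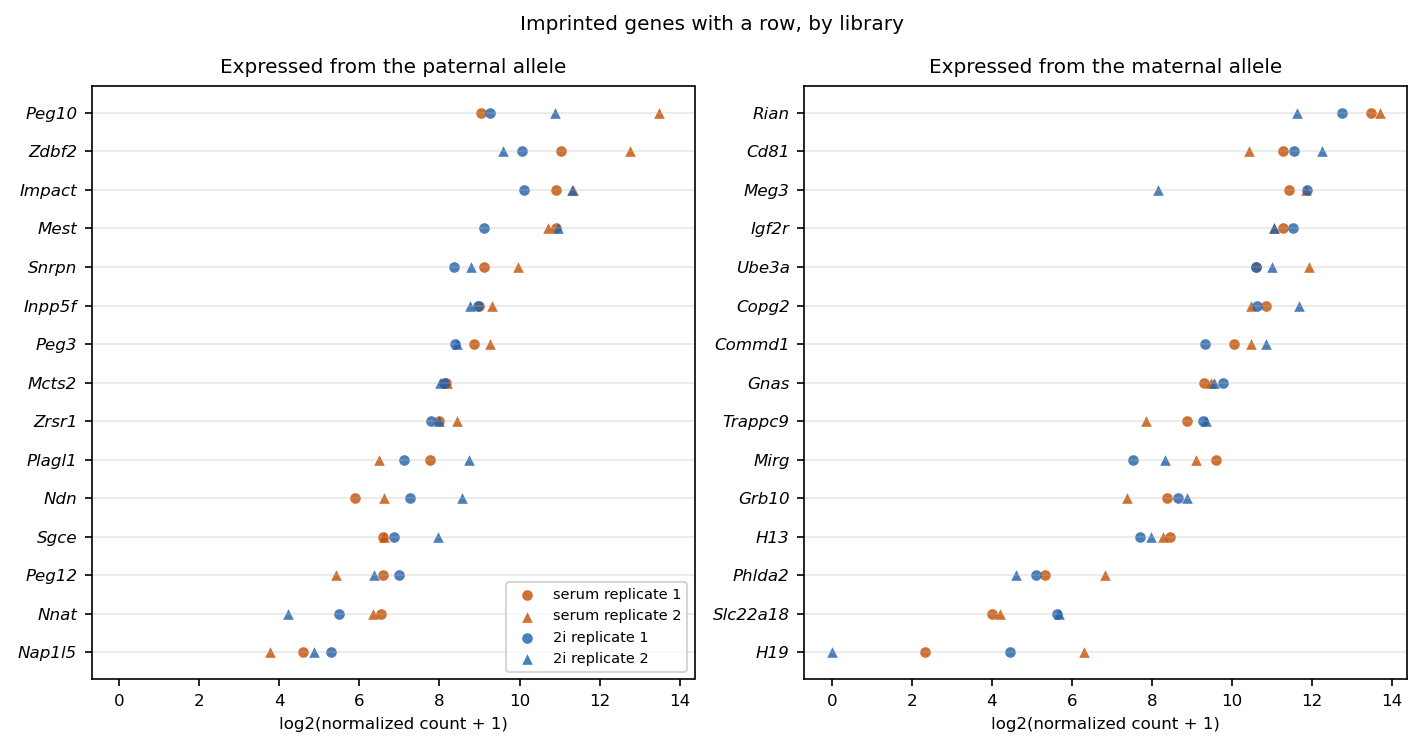
Log2(normalized count + 1) in each library (x axis) for the 15 paternally and 15 maternally expressed genes with a row, ordered by mean level; colour marks the medium and shape the replicate. Serum replicate 2 stands apart for Peg10 and 2i replicate 2 for Meg3, and both serum points lie above both 2i points for Zdbf2, Rian and Mirg.

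None of the 3 maternally expressed noncoding RNAs of the Dlk1-Meg3 domain on chromosome 12 passed the adjusted threshold. Rian and Mirg had higher values in both serum libraries, and Meg3 overlapped. This domain holds Meg3, Rian (host of small nucleolar RNAs) and Mirg (host of microRNAs) in a row on 1 strand, and the paternally expressed protein-coding genes Dlk1, Rtl1 and Dio3. Rian (ENSMUSG00000091793, chr12:110842155-110899919 in mm9) had 11388 and 13187 normalized counts in serum, against 6840 and 3155 in 2i. Both serum libraries were above both 2i libraries, with a log2 fold change of 1.399 (SE 0.57, a fold of 2.64), an unadjusted p of 0.047 and an adjusted p of 0.753 by limma. Mirg (ENSMUSG00000091158, chr12:110973191-110987665) had 773 and 544 in serum, against 183 and 321 in 2i. Its groups did not overlap either, with a log2 fold change of 1.42 (SE 0.51, a fold of 2.67), an unadjusted p of 0.030 and an adjusted p of 0.753 by limma. When 1 library was left out, the log2 fold change ran from 0.84 to 1.96 for Rian and from 1.01 to 1.82 for Mirg.

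Meg3 itself, a long noncoding RNA at the head of this transcription unit, did not separate the media. Its values were 2766 and 3664 in serum, against 3733 and 285 in 2i. The 2i libraries thus differed 13.1-fold, and 2i replicate 1 lay above both serum libraries. Its log2 fold change was 1.62 (SE 1.12, adjusted p = 0.759 by limma) and turned to -0.23 without 2i replicate 2. In the same library that had little Meg3, Rian was 2.17-fold below the other 2i library and Mirg 1.76-fold above it. Meg3 per kilobase stood to Rian at log2 ratios of -3.18 and -2.99 in serum and -2.02 and -4.61 in 2i, so the 2i ratios enclosed the serum ratios.

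**Figure D3:**
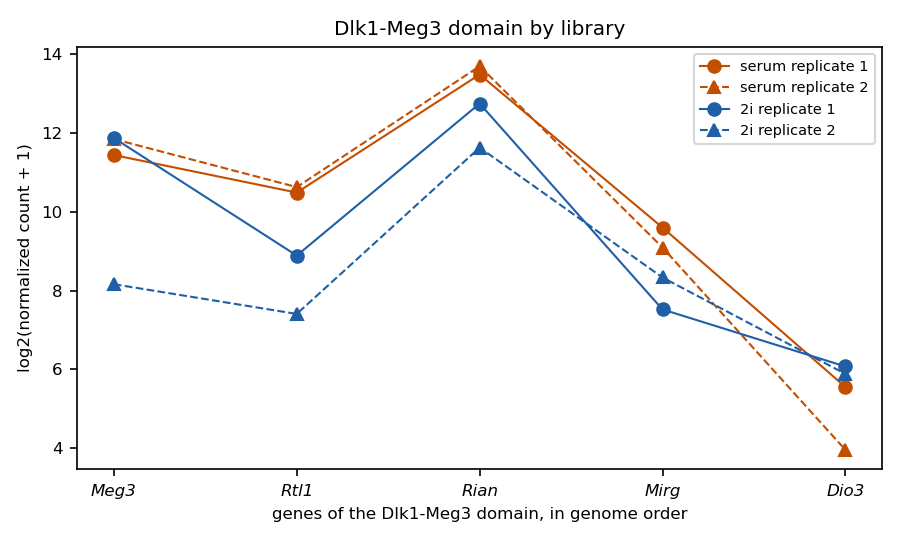
Log2(normalized count + 1) of 5 genes of the Dlk1-Meg3 domain with a row (y axis), in genome order, with a line for each library. Rtl1, Rian and Mirg are higher in both serum libraries, Meg3 is low only in 2i replicate 2 (285), and Dio3 is higher in both 2i libraries.

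The paternally expressed genes of the domain did not share a direction. Rtl1, a gene derived from a retrotransposon that serves in the placenta, had 1431 and 1575 in serum, against 472 and 169 in 2i, with a log2 fold change of 2.41 (SE 0.59) and an unadjusted p of 0.0056 by limma (adjusted p = 0.753). Rtl1 lies between Meg3 and Rian on the opposite strand, and its exons share 8.86% of their bases with microRNA hairpins on the strand opposite to its own. The sources used here do not state whether counting used the strand. Without strand, reads from the opposite strand over Rtl1 cannot be told from those of Rtl1. Dio3, an enzyme that inactivates thyroid hormone, had 46.0 and 14.6 in serum, against 66.4 and 58.2 in 2i. Dlk1, a membrane ligand of the Notch family, had no row. Rtl1 and Dio3 belong to a list of further imprinted genes described below.

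Between the start of Meg3 and the end of Mirg, the annotation places 56 microRNA genes and 23 small nucleolar RNA genes, and 0 of either had a row of its own. The exons of Mirg overlap 4 microRNA hairpins with 8 mature arms, which carry 8 different seeds. The 3p arm of each is printed from RefSeq to show which microRNAs lie in the counted exons, with the seed (bases 2 to 8) in capitals.
mmu-miR-377-3p: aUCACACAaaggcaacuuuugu
mmu-miR-412-3p: uUCACCUGguccacuagccg
mmu-miR-369-3p: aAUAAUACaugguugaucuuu
mmu-miR-410-3p: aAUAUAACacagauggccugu
The row of Mirg counts fragments over all its exons, and mature microRNAs were not analysed here.

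Among the paternally expressed members tested, Zdbf2 differed most. This zinc finger gene on chromosome 1 (ENSMUSG00000027520, chr1:63319839-63361150 in mm9) is also transcribed from the distal start printed above, whose transcription in the early embryo is known to set the later expression of the gene. It had 2091 and 6890 normalized counts in serum, against 1072 and 770 in 2i. Both serum libraries were above both 2i libraries, although the serum libraries themselves differed 3.30-fold. Its log2 fold change was 2.06 (SE 0.65, a fold of 4.17) and ran from 1.201 to 2.92 when 1 library was left out. The unadjusted p was 0.018 and the adjusted p 0.753 by limma. By DESeq2 the adjusted p was 0.061, and by limma with the replicate number as a block it was 0.052.

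Snrpn, which encodes a splicing protein and lies at the Prader-Willi and Angelman syndrome cluster, had 550 and 994 in serum, against 328 and 439 in 2i (log2 fold change 0.96, SE 0.50). Peg3, a zinc finger gene expressed in placenta and brain, had 465 and 608 in serum, against 335 and 348 in 2i (0.64, SE 0.44). Nnat, a small membrane protein gene inside Blcap, had 92.0 and 80.7 in serum, against 43.6 and 17.5 in 2i (1.60, SE 0.97). All 3 were higher in both serum libraries, with adjusted p-values of 0.753, 0.761 and 0.753 by limma. Blcap, the host of Nnat, was also higher in both serum libraries, at 272 and 274 against 160 and 133. Per kilobase, Nnat stood to Blcap at log2 ratios of -0.83 and -1.03 in serum and -1.14 and -2.19 in 2i, and the ratio was higher in serum without overlap. Inpp5f, a phosphoinositide phosphatase, was at 507 and 633 in serum, against 498 and 430 in 2i.

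Ndn showed the largest difference in the other direction. It encodes necdin, a protein of the MAGE family known from neurons, and is paternally expressed from the same cluster as Snrpn. Its values were 58.0 and 97.2 in serum, against 152 and 375 in 2i. Both 2i libraries were above both serum libraries, with a log2 fold change of -1.65 (SE 0.70, 3.15-fold higher in 2i), an unadjusted p of 0.052 and an adjusted p of 0.753 by limma. Snrpn and Ndn, expressed from the same allele of 1 cluster, thus lay on opposite sides. Peg12, a GSK3-binding protein of that cluster, overlapped at 95.0 and 41.8 in serum, against 126 and 81.5 in 2i. Mkrn3, a further paternally expressed gene of the cluster outside the 39, had 58.0 and 97.2 in serum, against 107 and 165 in 2i.

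Sgce, a sarcoglycan gene that shares its start region with Peg10, had 96.1 and 97.2 in serum, against 116 and 249 in 2i (log2 fold change -0.81, SE 0.64, adjusted p = 0.773 by limma). Its partner Peg10, another retrotransposon-derived gene needed in the placenta, had 526 and 11552 in serum, against 608 and 1879 in 2i. The serum libraries differed 21.95-fold for Peg10 and 1.01-fold for Sgce, although both genes are read from opposite strands of 1 start region. The log2 fold change of Peg10 was 1.21 (SE 1.39) and turned to -1.02 without serum replicate 2.

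Of the 13 maternally expressed genes tested, 4 had both 2i libraries above both serum libraries, as 19.4% of all genes did, and 4 had the reverse (Rian, Mirg, Phlda2 and H13), as 20.5% of all genes did. Those higher in 2i are given here. Cd81, a tetraspanin of the cell surface near the Kcnq1 cluster, had 2476 and 1376 in serum, against 3010 and 4822 in 2i (log2 fold change -1.04, SE 0.52, 2.06-fold higher in 2i, adjusted p = 0.753 by limma). Trappc9, a subunit of a vesicle trafficking complex, had 466 and 231 in serum, against 620 and 651 in 2i (-0.95, SE 0.51). Grb10, an adaptor that dampens insulin and growth factor receptor signals, had 332 and 166 in serum, against 403 and 469 in 2i (-0.88, SE 0.53). Gnas, which encodes the stimulatory G protein subunit, had 632 and 712 in serum, against 875 and 754 in 2i (-0.27, SE 0.42). For Cd81, Trappc9 and Grb10 serum replicate 2 was the lowest library. With quantile normalization Ndn and Sgce no longer separated the groups. The exons of Gnas share 21.97% of their bases with antisense transcripts of the locus, among them Nespas. The row of Gnas also sums 11186 bases of merged exon over a gene with more than 1 RefSeq start. Transcripts from different starts, and the alleles they come from, were therefore not separated.

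In 4 loci a gene of each allele class had a row, which allowed a comparison within the locus and within each library. Mest, a hydrolase-like gene of the paternal allele, had 1938 and 1685 in serum, against 555 and 2007 in 2i, and Copg2, a coatomer subunit of the maternal allele on the other strand, had 1849 and 1427 in serum, against 1587 and 3248 in 2i. Each alone overlapped between the media, and the log2 fold changes of 0.77 (SE 0.66) for Mest and -0.48 (SE 0.52) for Copg2 turned to -0.15 without 2i replicate 1 and to 0.03 without 2i replicate 2. Their log2 ratio of Copg2 to Mest per kilobase was -0.25 and -0.43 in serum, against 1.33 and 0.51 in 2i, so that Copg2 exceeded Mest in both 2i libraries and in neither serum library. The exons of Mest and Copg2 share 23.0% and 20.2% of their bases on opposite strands, and without strand the reads of these bases cannot be told apart.

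The other loci shifted less. Ube3a, a ubiquitin ligase that is imprinted mainly in neurons, had 1539 and 3868 in serum, against 1548 and 2055 in 2i, a log2 fold change of 0.45 (SE 0.57) that turned to -0.21 without serum replicate 2. Its log2 ratio per kilobase to the summed Snrpn, Ndn and Peg12 was -0.09 and 0.53 in serum and 0.07 and -0.18 in 2i, which overlapped. Commd1, a regulator of copper and of NF-κB, had 1064 and 1420 in serum, against 644 and 1835 in 2i, and Zrsr1, a splicing factor retrocopy inside Commd1, had 255 and 345 in serum, against 221 and 253 in 2i. The log2 ratio of Commd1 to Zrsr1 was 0.71 and 0.69 in serum, against 0.19 and 1.505 in 2i. Mcts2, a retrocopy inside H13, was the steadiest member at 286 and 289 in serum, against 275 and 258 in 2i, with a log2 fold change of 0.11 (SE 0.46) that was -0.01 with upper quartile scaling. H13, a signal peptide peptidase, had 351 and 308 in serum, against 208 and 251 in 2i, and its log2 ratio to Mcts2 was -3.21 and -3.42 in serum and -3.92 and -3.55 in 2i. Commd1 had a log2 fold change of 0.18 (SE 0.60), which turned to -0.03 without serum replicate 2 and to -0.58 without 2i replicate 1, and only 69.3% of its 43-base words occur in no other gene.

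Further members with overlapping groups were Igf2r, Impact and Plagl1. Igf2r, the receptor that clears the growth factor IGF2, had 2494 and 2105 in serum, against 2924 and 2133 in 2i, and its log2 fold change of -0.12 (SE 0.45) became 0.10 without 2i replicate 1. Impact, an inhibitor of the stress kinase GCN2, had 1936 and 2597 in serum, against 1096 and 2554 in 2i, and 0.42 (SE 0.55) became -0.19 without 2i replicate 1. Plagl1, a zinc finger gene that restrains growth, had 215 and 88.5 in serum, against 138 and 427 in 2i, and its -0.81 (SE 0.76) ran from -1.62 to -0.00034 when 1 library was left out.

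The difference between the media exceeded the gap between the serum libraries and the gap between the 2i libraries for 11 of the 27 members (40.7%), where it did for 26.3% of all genes tested. Of these 11, 8 were higher in serum (Zdbf2, Nnat, Mirg, Rian, Snrpn, Peg3, H13 and Mcts2) and 3 in 2i (Ndn, Cd81 and Gnas). Among the 27 members tested, the widest gap between replicates was that of Peg10 in serum, 4.45 on the log2 scale, followed by that of Meg3 in 2i, 3.71. The median gap of the members tested was 0.42 in serum and 0.62 in 2i, and their median absolute log2 fold change between the media was 0.81. The gaps are between single libraries and the fold change between means of 2 libraries, which vary less.

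**Figure D4:**
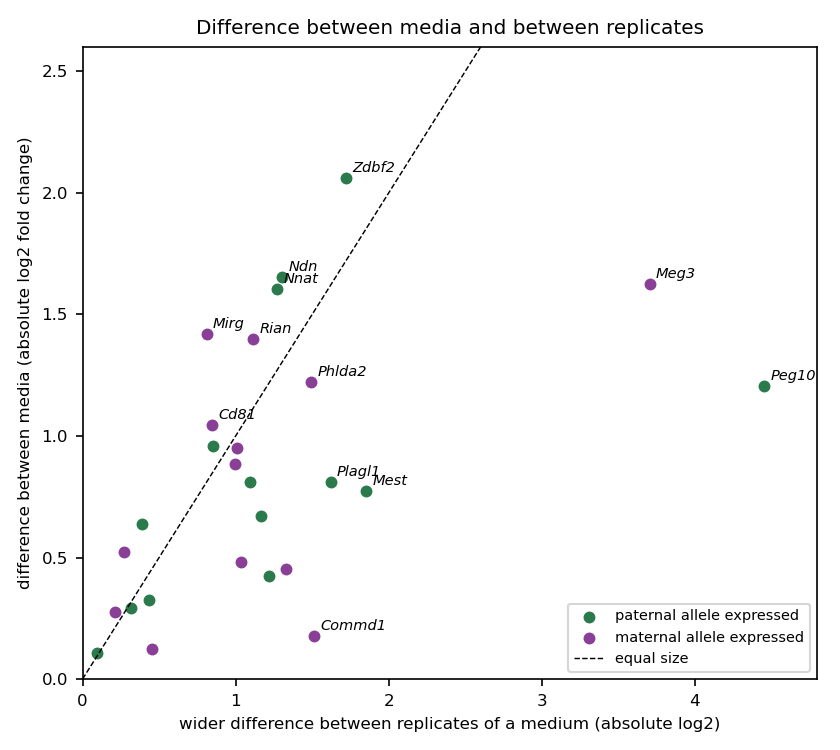
Absolute log2 fold change between serum and 2i (y axis) against the wider of the gaps between replicates in serum and in 2i (x axis, absolute log2 difference), with a point for each of the 27 imprinted genes tested, coloured by the allele known to be expressed. The dashed line marks equal size, 11 genes lie above it, and Peg10 and Meg3 lie far to the right at gaps of 4.45 and 3.71.

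Members with few reads are given next. Phlda2, which limits placental growth, had 39.02 and 112 in serum, against 33.2 and 23.3 in 2i, with a log2 fold change of 1.22 (SE 1.07, adjusted p = 0.785 by limma). Slc22a18, a transporter of the same cluster, had 15.0 and 17.5 in serum, against 48.8 and 50.4 in 2i, and so missed the filter of a mean of 50 in either group with 2i means 3.05-fold those of serum. Fitted without that filter its log2 fold change was -1.56 (SE 1.01) with an adjusted p of 0.768 by limma. Nap1l5, a nucleosome assembly family gene inside Herc3, had 23.0 and 12.6 in serum, against 38.4 and 28.1 in 2i. H19, the noncoding RNA of the Igf2 locus, had 4.002 and 77.8 in serum, against 20.8 and 0 in 2i, so that the serum libraries differed 19.4-fold. A count of 0 reads allows up to 3 reads, which are 2.91 normalized counts in that library, for counting error only. The summed trophoblast markers, given above, were higher in both 2i libraries, mostly through Elf5 in replicate 1 and Krt8 in replicate 2. The part of these markers in the values of the members was not tested.

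The 9 members without a row were 7 of the paternal and 2 of the maternal allele. Igf2, Dlk1, Usp29, Zim1, Magel2, Ascl2 and Rasgrf1 were annotated but had no row, and Kcnq1ot1 and Peg13 had no entry of that symbol in the annotation. No level of these genes was analysed here. The smallest total of any row in the table was 51 reads over the 4 libraries.

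Per kilobase of exon, the members covered most of the range of expression in these cells, with H19 at percentile 8 and Cd81 at percentile 93.8 of all genes. Cd81 was highest with a mean of 1287 normalized counts per kilobase over the 4 libraries, followed by Rian with 1054, Impact with 596, Peg10 with 547, Copg2 with 453 and Ube3a with 442. Zdbf2 was in the middle with 214, and Meg3 had 144 and Mirg 143. At the low end Slc22a18 had 19.2, Nap1l5 13.5 and H19 10.8. For all 29 pairs of neighbours in this order the ranges over the 4 libraries overlapped, so the order is not fixed from 1 gene to the next. Rian exceeded Meg3 per kilobase in each of the 4 libraries.

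**Figure D5:**
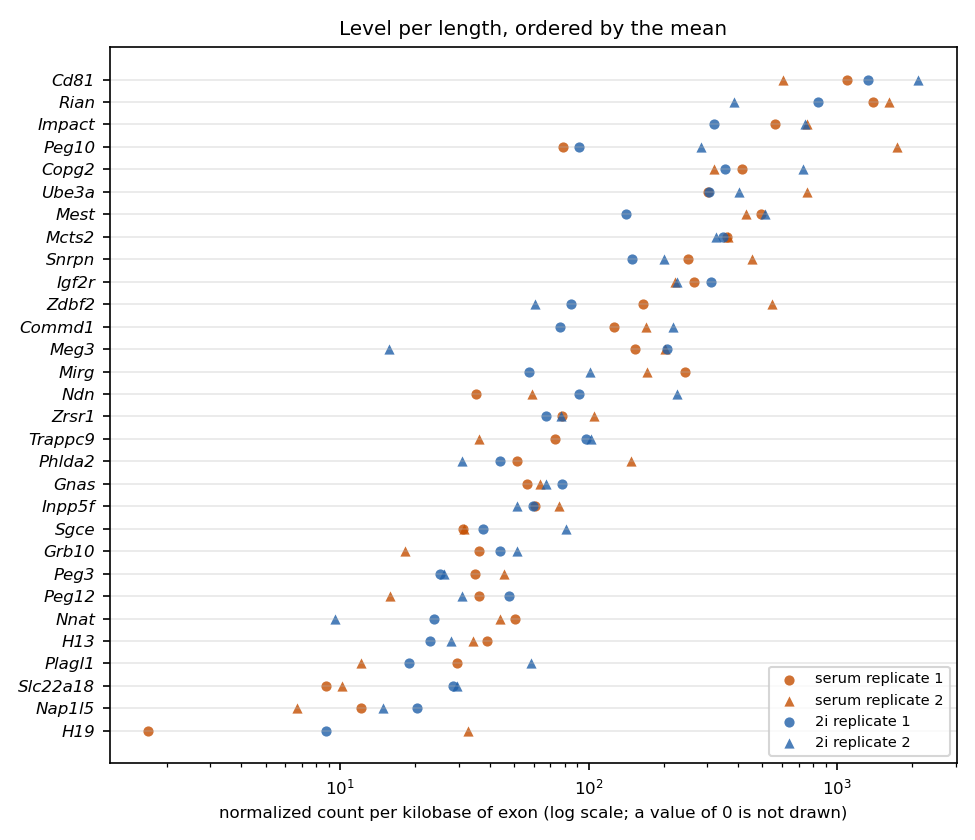
Normalized count per kilobase of exon in each library (x axis, log scale) for the 30 imprinted genes with a row, ordered by the mean over the 4 libraries, with colour for the medium and shape for the replicate. Means run from 10.8 for H19 to 1287 for Cd81, and the ranges of neighbouring genes overlap; the value of 0 for H19 in 2i replicate 2 is not drawn.

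Factors that protect imprints or handle DNA methylation formed a list of 17 genes, all tested. By limma 0 passed the adjusted threshold, and at an unadjusted p with a 2-fold change 3 were higher in serum (Arid4a, Dnmt3a and Dnmt3b) and 1 in 2i (Dppa3), where 2.97% and 3% of all genes were. The median log2 fold change of the list was 0.67, with 14 above 0 and 3 below. Zfp57 had 2932 and 4462 in serum, against 2531 and 3604 in 2i, and Trim28 had 8592 and 16480 in serum, against 6880 and 18544 in 2i, and both overlapped. Zfp445, which acts beside Zfp57 at imprinted control regions, was at 752 and 1139 in serum, against 505 and 455 in 2i. The de novo methyltransferase Dnmt3b was at 740 and 1957 in serum, against 244 and 483 in 2i (log2 fold change 1.81, SE 0.64), Dnmt3a at 1226 and 1858 against 800 and 285 (1.66, SE 0.61), and the maintenance enzyme Dnmt1 at 5104 and 4492 against 3908 and 2805. Dppa3, which shields methylation in the zygote, was at 18.0 and 17.5 in serum, against 244 and 391 in 2i. Its log2 fold change was -4.05 (SE 0.74) with an adjusted p of 0.753 by limma. The adjusted p was 5.61e-07 by DESeq2, 0.0094 by limma with the replicate number as a block, and 0.692 by edgeR. Of its 43-base words 78.4% occur in no other gene.

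A further 41 imprinted genes were listed beside the 39, of which 19 had a row and 18 were tested. Their median log2 fold change was 0.14, with 10 above 0 and 8 below. By limma 0 passed the adjusted threshold, and 3 were higher in serum at an unadjusted p with a 2-fold change, namely Rtl1, Ppp1r9a and Nespas, with 0 in 2i, beside the same shares of all genes. Ppp1r9a, a neuronal scaffold gene of the Peg10 cluster, had 816 and 1579 in serum, against 563 and 270 in 2i. Nespas, an antisense transcript of the Gnas locus that is paternally expressed, had 273 and 353 in serum, against 142 and 116 in 2i, while Gnas was higher in both 2i libraries. Phactr2 was at 69.0 and 30.1 in serum, against 110 and 127 in 2i, and Sfmbt2, a Polycomb protein of the placenta, at 144 and 234 against 255 and 301. Cdkn1c, which encodes the cell cycle inhibitor p57, had 20.0 and 76.8 in serum, against 21.8 and 101 in 2i, where the difference between libraries of 1 medium was the larger.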

How the data were processed

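RNA of serum and 2i ESCs in late G1-phase was measured in 2 libraries each. Per the study's methods, the authors depleted ribosomal RNA, sequenced randomly primed fragments, aligned 43-base reads to mm9 with Bowtie and quantified them with MMSeq. The deposited values are a signal: counts per gene, each scaled by the DESeq2 size factor of its library. Strand use in counting is not given in the sources used here. Each value was a whole multiple of 1 step per library (100% of values, to a relative tolerance of 1e-06), which gave whole reads. Gene names and positions came from GENCODE vM1 on the same build (14462 of 14533 genes), and motif and microRNA sequences from RefSeq on GRCm38.p6. A word is a stretch of 43 bases of exon.

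Genes with a mean of at least 50 in either group were tested with limma 3.58.1 (R 4.3.3), with a variance trend, on log2(normalized count + 1), a scale that understates the change of low genes. Fold changes are serum over 2i. P-values, from two-sided tests, were adjusted over all 13005 genes and measure only the spread between these libraries. The study called genes with DESeq2, which was run with edgeR 4.0.16 and DESeq2 1.42.0 on whole reads as an alternative, beside other pseudocounts (0.5 and 5), filters (none, and a mean of 200), scalings, the replicate block, and leaving out each library. Levels between genes are per kilobase of merged exons. Any of the 39 members and any gene of the lists could be named. The members and lists were chosen with earlier results of these data known.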

Additional observations from a re-analysis of the deposited data

How the results depend on the processing

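In every setting with all 4 libraries, 0 members passed the adjusted threshold. The share of all genes was counted only for limma as reported, the replicate block and DESeq2. For the other settings the 0 therefore cannot be read as a result about the members. At an unadjusted p, limma without a variance trend left 1 member (Zdbf2) past the 2-fold limit, with the share of all genes not counted. As reported, the number of members past this limit was 3, beside the shares of all genes given above. With the replicate number as a block it was 6, adding Meg3 and Peg10 (higher in serum) and Ndn (higher in 2i) to Zdbf2, Rian and Mirg, where 4.9% of all genes were higher in serum and 6.06% in 2i. The deviations of same-numbered libraries from their group means correlated at r = 0.480 across genes, which are not independent, and with 2 pairs of unstated origin the numbers were not taken to pair the libraries. In the factor list 2 genes were called under the block (Dppa3 in 2i, Dnmt3l in serum) and 1 with DESeq2 (Dppa3), against 0 as reported, and Rtl1 had an adjusted p of 0.0148 under the block and 0.753 without it. Of 427 refitted fold changes of single members, 12 turned sign: Commd1 was -0.024 with edgeR and -0.013 with DESeq2, and Mcts2 was -0.011 with upper quartile scaling. The others turned when 1 library was left out, with ranges of -0.58 to 0.93 for Commd1, -0.35 to 0.10 for Igf2r, -0.23 to 3.48 for Meg3, -0.21 to 1.12 for Ube3a, -1.02 to 3.43 for Peg10, -0.15 to 1.70 for Mest, -0.999 to 0.033 for Copg2 and -0.19 to 1.03 for Impact. With upper quartile scaling Mcts2 and Inpp5f, and with quantile normalization Ndn and Sgce, no longer separated the groups. The cause was not tested. The median over all genes tested moved to -0.12 with upper quartile scaling and to 0.12 with a mean of at least 200, against 0.0047. With 2 libraries per group, 1 library could turn the sign of 8 members.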
